A study of Mus musculus with 24 samples.

Results

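The effect of an AhR vector given alone was measured in the livers of 3 alcohol-fed female mice and set against 3 alcohol-fed female mice that received control vectors only, 6 of the 24 libraries in the series. The AhR-vector mice received AAV-shControl first and AAV-shAhR second, and the control mice received AAV-shControl on both occasions. AAV is adeno-associated virus, used here to deliver short hairpin RNAs that lower the messenger RNA of a target gene. All 6 mice, like every other mouse of the series, had been fed the Lieber-DeCarli liquid alcohol diet for 3 weeks, so the control mice carry both the diet and a hairpin vector, and an effect of either is in both groups. Further females received vectors against Kdm5b and Kdm5c followed by the AhR vector (Kdm5 + AhR) or by a control vector (Kdm5), and males received the same 4 combinations, with 3 mice in each of the 8 groups. The sources used here give neither strain, age and vector dose nor the promoter that drives the hairpins. The series concerns how KDM5 histone demethylases act in alcohol-associated liver disease in each sex. This comparison sets the AhR vector against control vectors in females without the Kdm5 vectors.

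AhR, the aryl hydrocarbon receptor encoded by Ahr, is a transcription factor that stays in the cytoplasm until a ligand binds it. It then pairs with ARNT in the nucleus and binds DNA at the core GCGTG, and in liver it induces the cytochrome P450 genes Cyp1a1 and Cyp1a2. Its ligands include dioxins and metabolites of tryptophan from food, host and gut bacteria. KDM5 enzymes remove methyl groups from lysine 4 of histone H3, a mark of active promoters.

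Values were the deposited FPKM (fragment counts divided by the length of the transcript and by the size of the library) of 2372 genes, of which 2299 were tested. The values of the whole table summed to 291812 to 304173 in AhR-vector libraries and to 290900 to 326460 in control libraries, which are sums over the table and not depths, since FPKM removes the depth. The Pearson correlation of log2 values across genes, which are not independent replicates, was 0.982 to 0.986 within the AhR-vector libraries, 0.983 to 0.990 within the control libraries and 0.980 to 0.989 between them. Markers of hepatocytes were abundant in every library: the 4 markers in the table summed to 13943 to 14210 FPKM with the AhR vector and 13888 to 15636 FPKM with control vectors. Ahr itself was not analysed here, so the lowering of its messenger RNA was not checked.

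With the AhR vector, 5 genes were higher than with control vectors: the fetal liver genes Afp and Igf2, by 4.50 and 1.08 on the log2 scale, and Ppp2r5e, Erc1 and Mavs, by 0.50 to 0.70. They were the genes that passed the test among 2299 (0.217%). A gene passed at an adjusted p under 0.05 from limma, with Benjamini-Hochberg adjustment over the 2299 genes and a spread shared by all 8 groups of 3 mice. At an unadjusted p under 0.05, limma gave 297 genes (12.9%), 154 higher (6.7%) and 143 lower (6.22%). The 3 AhR-vector libraries lay clear of the 3 control libraries in 331 genes (14.4%), 159 higher (6.92%) and 172 lower (7.48%). Of all tested genes, 1088 (47.3%) had a log2 fold change above 0 and 1211 (52.7%) one below, and the median was -0.01, with quartiles of -0.14 and 0.13. The p-values set each change against a spread between mice that is pooled over all 8 groups, males included. When the 6 libraries were fitted alone, Afp was the gene that still passed (adjusted p = 0.00205) and the other 4 did not (adjusted p = 0.661 each).

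**Figure D1:**
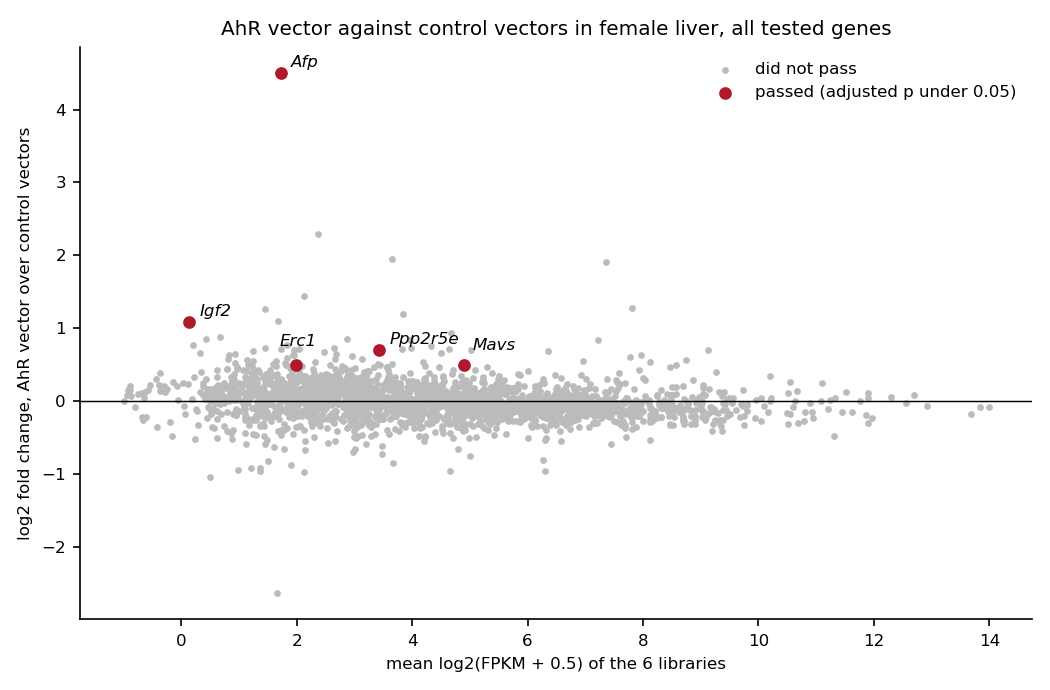
Each point is 1 of the 2299 tested genes, with its mean log2(FPKM + 0.5) over the 6 female libraries on the x axis and the log2 fold change of the AhR vector over control vectors on the y axis. Red points mark the 5 genes that passed; Afp stands apart at 4.50, while genes at 1.90 to 2.29 and at -2.63 did not pass.

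The promoters of Afp, Erc1 and Mavs are shown because these 3 genes passed and carry the letters searched for, from 250 bases before to 50 bases after the start that RefSeq gives on GRCm38.p6, read 5′ to 3′ on the strand of the gene. In Afp, capitals mark TATAAA, the TATA box. In Erc1 and Mavs, capitals mark the AhR and ARNT core GCGTG, which reads CACGC on the other strand. The Afp promoter lies at chr5:90490464-90490763 on the plus strand, that of Erc1 at chr6:119848101-119848400 on the minus strand and that of Mavs at chr2:131233813-131234112 on the plus strand.
Afp: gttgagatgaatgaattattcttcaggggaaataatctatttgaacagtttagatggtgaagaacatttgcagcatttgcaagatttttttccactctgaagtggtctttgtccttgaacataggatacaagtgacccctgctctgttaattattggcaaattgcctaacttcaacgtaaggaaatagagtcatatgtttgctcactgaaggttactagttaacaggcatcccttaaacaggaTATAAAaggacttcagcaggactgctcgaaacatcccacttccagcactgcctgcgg
Erc1: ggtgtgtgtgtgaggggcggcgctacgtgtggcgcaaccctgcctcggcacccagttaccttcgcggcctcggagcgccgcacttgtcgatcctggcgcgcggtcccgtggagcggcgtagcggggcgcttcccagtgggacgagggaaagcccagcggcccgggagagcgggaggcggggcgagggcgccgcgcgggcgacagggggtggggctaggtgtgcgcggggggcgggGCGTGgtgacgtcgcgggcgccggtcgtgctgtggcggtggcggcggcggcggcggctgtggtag
Mavs: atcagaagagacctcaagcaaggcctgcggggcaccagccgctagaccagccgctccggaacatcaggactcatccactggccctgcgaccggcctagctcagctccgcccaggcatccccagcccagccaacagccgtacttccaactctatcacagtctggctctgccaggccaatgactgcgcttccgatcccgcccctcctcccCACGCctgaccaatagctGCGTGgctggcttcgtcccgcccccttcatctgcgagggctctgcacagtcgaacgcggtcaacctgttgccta

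RefSeq promoters were matched for 4 of the 5 genes, all but Ppp2r5e. On both strands, GCGTG was found in none of the Afp or Igf2 windows, once in that of Erc1 and 2 times in that of Mavs. Among all 32851 RefSeq promoter windows of the same length, 32.4% held this core, as did 45.6% of the 2365 windows of genes tested here. TATAAA occurred once in the Afp window and in 13.6% of all windows. It begins 7 bases before the RefSeq start and 30 bases before the start that GENCODE M21 gives. None of these matches overlapped another. A match describes letters only, and binding was not measured.

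Afp encodes alpha-fetoprotein, the main serum protein of the fetal liver, which is silenced in mouse liver after birth and returns in regenerating liver and in liver tumours. It had 10.13, 16.89 and 20.43 FPKM in AhR-vector females, against 0.05, 0.23 and 0.33 FPKM in control-vector females. Every AhR-vector liver was above every control liver by a wide margin. The means were 15.8 ± 5.23 FPKM with the AhR vector and 0.203 ± 0.142 FPKM with control vectors (SD, n = 3 each). Afp rose by 4.50 ± 0.29 on the log2(FPKM + 0.5) scale (95% interval 3.90 to 5.10, SE after the sign; adjusted p = 3.1e-09 by limma). This scale understates the change of genes with low values: the ratio of the mean FPKM was 77.8. Leaving out any 1 of the 6 libraries left the change between 4.29 and 4.78, past the threshold each time. Afp entered the test through 10 libraries that reached 1 FPKM. These were 3 in each female group with an active vector and 1 in AhR-vector males. No control-vector library reached it, so the place of Afp among the tested genes rests on the groups where it is high. Among its neighbours in the albumin gene cluster, Afm, which encodes afamin, had a log2 fold change of -0.03 ± 0.12.

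Igf2 encodes insulin-like growth factor 2, a growth factor of fetal tissues, expressed from the paternal copy and switched off in mouse liver after birth. It measured 1.07, 1.17 and 1.05 FPKM in AhR-vector females and 0.44, 0.16 and 0.19 FPKM in control-vector females. All of these are low values, but the groups did not overlap. Igf2 rose by 1.08 ± 0.16 log2 (95% interval 0.74 to 1.42, adjusted p = 0.00204 by limma), and it passed with each of the 6 libraries left out. It entered the test because 5 libraries reached 1 FPKM, 3 with the AhR vector and 2 with Kdm5 + AhR, so its place among the tested genes rests on the groups where it is high. In a fit of the 12 female libraries alone its adjusted p was 0.0777.

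Ppp2r5e encodes the epsilon form of a regulatory subunit that directs protein phosphatase 2A to its substrates. Its levels were 12.55, 15.95 and 11.43 FPKM with the AhR vector and 8.88, 6.92 and 8.12 FPKM with control vectors. The lowest AhR-vector liver was above the highest control liver. It rose by 0.70 ± 0.12 log2 (95% interval 0.44 to 0.95, adjusted p = 0.0111 by limma). Without control mouse 2 or without AhR-vector mouse 2 it did not pass (adjusted p = 0.0702 and 0.0566).

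Erc1 encodes a scaffold protein of secretory vesicle docking at the cell cortex that has also been tied to NF-kB signalling. It stood at 3.79, 3.98 and 4.93 FPKM with the AhR vector, against 2.71, 2.79 and 2.98 FPKM with control vectors. The control livers lay close together and the AhR-vector livers lay above them, mouse 3 the highest. Its log2 fold change was 0.50 ± 0.10 (95% interval 0.29 to 0.71, adjusted p = 0.0345 by limma), and it did not pass without control mouse 1, control mouse 2, AhR-vector mouse 2 or AhR-vector mouse 3 (adjusted p = 0.150, 0.105, 0.0530 and 0.156).

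Mavs encodes the mitochondrial adaptor through which the RNA sensors RIG-I and MDA5 switch on interferon genes. It had 36.11, 32.22 and 36.23 FPKM with the AhR vector and 23.71, 23.13 and 26.81 FPKM with control vectors. It is the most abundant of the 5 genes on this length-scaled measure, and its groups did not overlap. It rose by 0.50 ± 0.10 log2 (95% interval 0.29 to 0.70, adjusted p = 0.0345 by limma). Without control mouse 1, control mouse 2, AhR-vector mouse 1 or AhR-vector mouse 3 it did not pass (adjusted p = 0.150, 0.119, 0.0764 and 0.156).

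In GENCODE M21 on GRCm38, Afp lies on chromosome 5 from 90490737 to 90508907 (plus strand), Igf2 on chromosome 7 from 142650766 to 142666816 (minus strand), and Ppp2r5e on chromosome 12 from 75450881 to 75596245 (minus strand). Erc1 lies on chromosome 6 from 119570796 to 119848167 (minus strand) and Mavs on chromosome 2 from 131234063 to 131248025 (plus strand). All 5 are protein-coding genes. Afp, Igf2, Ppp2r5e and Erc1 overlap an annotated antisense gene, and Igf2 also overlaps a protein-coding gene and a miRNA gene on its own strand, while Mavs overlaps none. Strand was not stated for the counting, so reads from such partners cannot be told apart.

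**Figure D2:**
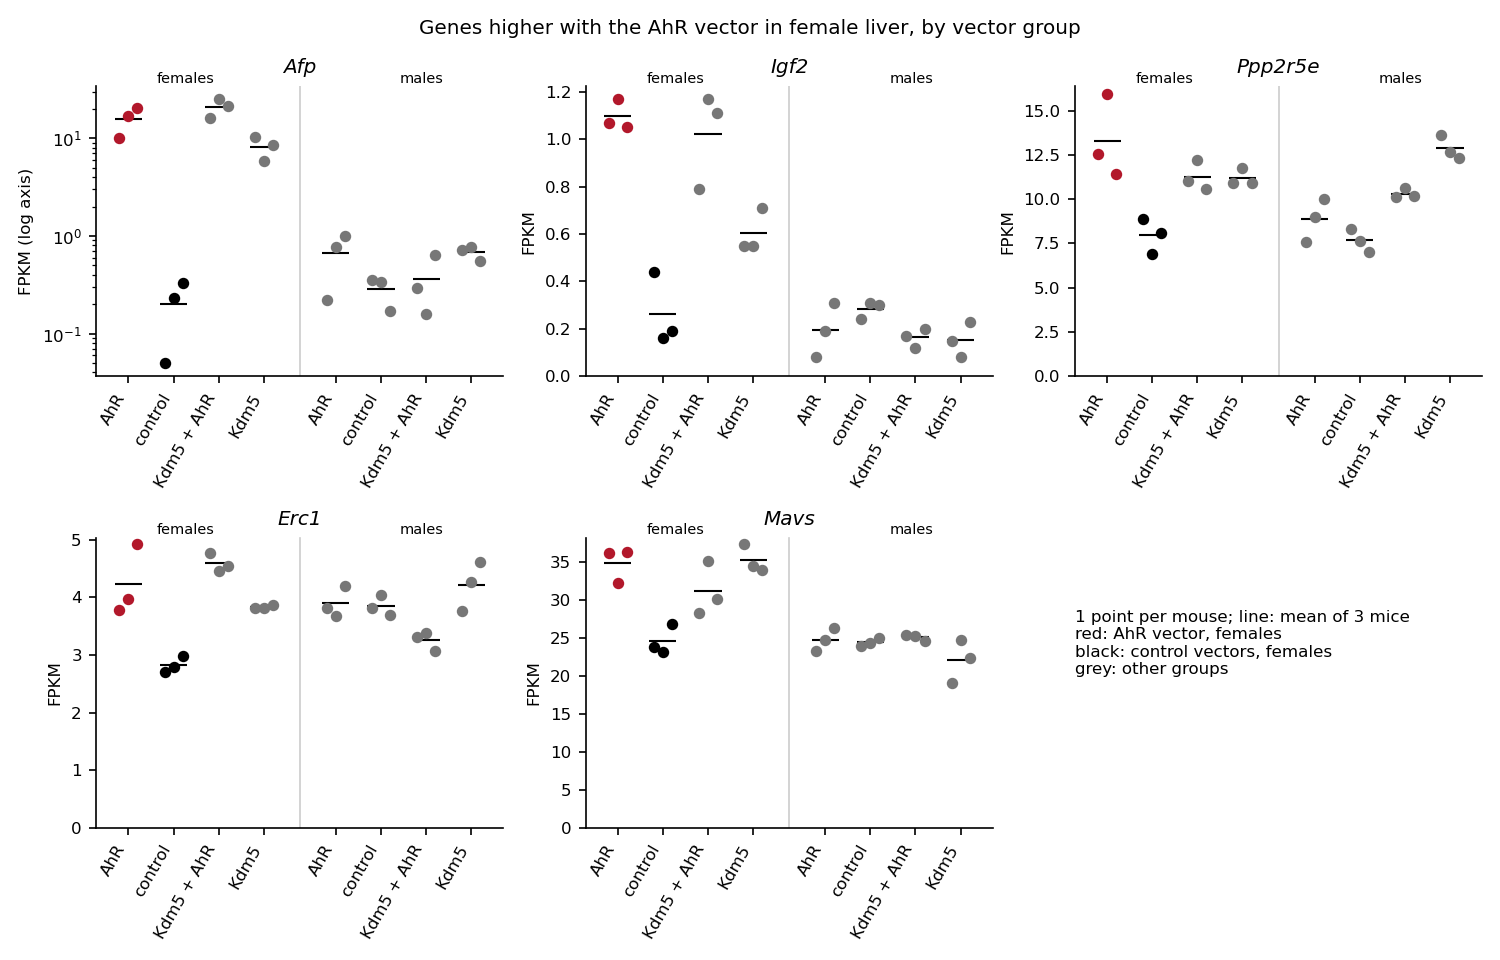
FPKM of the 5 genes that passed, 1 point per mouse and a line at the mean of 3, for 4 vector groups in females and 4 in males; the Afp axis is logarithmic and the other axes start at 0. AhR-vector females (red) lie above control-vector females (black) in all 5 panels, and for Afp and Igf2 every male lies at or below 1.01 and 0.31 FPKM.

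No gene passed in the lower direction (0%), although by limma 143 genes were lower at an unadjusted p under 0.05. The genes described next did not pass. They are the 10 genes with the highest and the 10 with the lowest values among 188 with an unadjusted p under 0.05, a mean of at least 1 FPKM and no overlap between the groups, 99 of them higher and 89 lower. Because that rule selects for difference, their values are a description.

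Among the higher ones was Palld, which encodes the actin-bundling protein palladin, with 18.89, 14.30 and 20.37 FPKM in AhR-vector females and 11.36, 8.24 and 12.49 FPKM in control-vector females. Its log2 fold change of 0.72 ± 0.15 was just outside the threshold (adjusted p = 0.0502 by limma). The others of the 10 included Mtss1, which encodes a protein that bends membranes and binds actin (0.72 ± 0.19), the GTPase-activating protein gene Stard13 (0.77 ± 0.22), the tubulin gene Tuba8 (0.71 ± 0.20), the lysosomal trafficking regulator Lyst (0.73 ± 0.18) and the Nogo receptor relative Rtn4rl1 (0.72 ± 0.19). Onecut1, which encodes the hepatocyte transcription factor HNF6, had 3.17, 3.44 and 4.73 FPKM with the AhR vector and 1.53, 3.16 and 1.78 FPKM with control vectors, a log2 fold change of 0.72 ± 0.25. Irs2, the insulin receptor substrate that carries much of the hepatic insulin signal, had 0.71 ± 0.24, and the lipid hydrolase gene Abhd2 had 0.71 ± 0.20. The heat shock gene Hspa1b, with 1.10 ± 0.34, spread from 2.54 to 8.31 FPKM within the AhR-vector females.

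Among the lower ones, Rnf125 encodes a ubiquitin ligase that in human cells marks RIG-I and MAVS for degradation. It measured 53, 58.46 and 56.4 FPKM with the AhR vector and 131.09, 128.02 and 77.53 FPKM with control vectors, a log2 fold change of -0.96 ± 0.24 (adjusted p = 0.0940 by limma). The lack of overlap for Rnf125 was part of the rule that chose it, and a link to the change of Mavs was not tested. Cyp26b1, which breaks down retinoic acid, had 1.61, 1.22 and 0.79 FPKM with the AhR vector against 2.76, 2.29 and 3.01 FPKM with control vectors (-0.92 ± 0.20, adjusted p = 0.0530 by limma). The splicing factor gene Srsf5 had 45.99, 64.08 and 66.18 FPKM with the AhR vector and 109.34, 104.53 and 91.46 FPKM with control vectors (-0.80 ± 0.18, adjusted p = 0.0530 by limma). The inhibitory Smad gene Smad7 had -0.88 ± 0.25 and Id3, an inhibitor of helix-loop-helix factors, had -0.75 ± 0.26. The remaining ones were the hydrogen peroxide-producing NADPH oxidase gene Nox4 (-0.97 ± 0.28), the cytokine gene Tnfsf13 (-1.04 ± 0.41), the prostaglandin D synthase gene Ptgds (-0.91 ± 0.33), the potassium channel gene Kcnk5 (-0.72 ± 0.21) and the kinase gene Map3k13 (-0.64 ± 0.20).

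A further 4 genes near the threshold were chosen after their values were seen. Prox1, a homeobox regulator of liver development, had 24.05, 27.10 and 33.20 FPKM with the AhR vector and 17.59, 16.74 and 18.01 FPKM with control vectors (0.66 ± 0.14, adjusted p = 0.0502 by limma). Ankrd17 had a log2 fold change of 0.58 ± 0.13 (adjusted p = 0.0530 by limma) and Zhx3, of the zinc finger and homeobox family to which the Afp repressor Zhx2 belongs, had 0.65 ± 0.15 (adjusted p = 0.0832 by limma). The ribosomal protein gene Rps27 had -0.40 ± 0.09 (adjusted p = 0.0583 by limma).

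**Figure D3:**
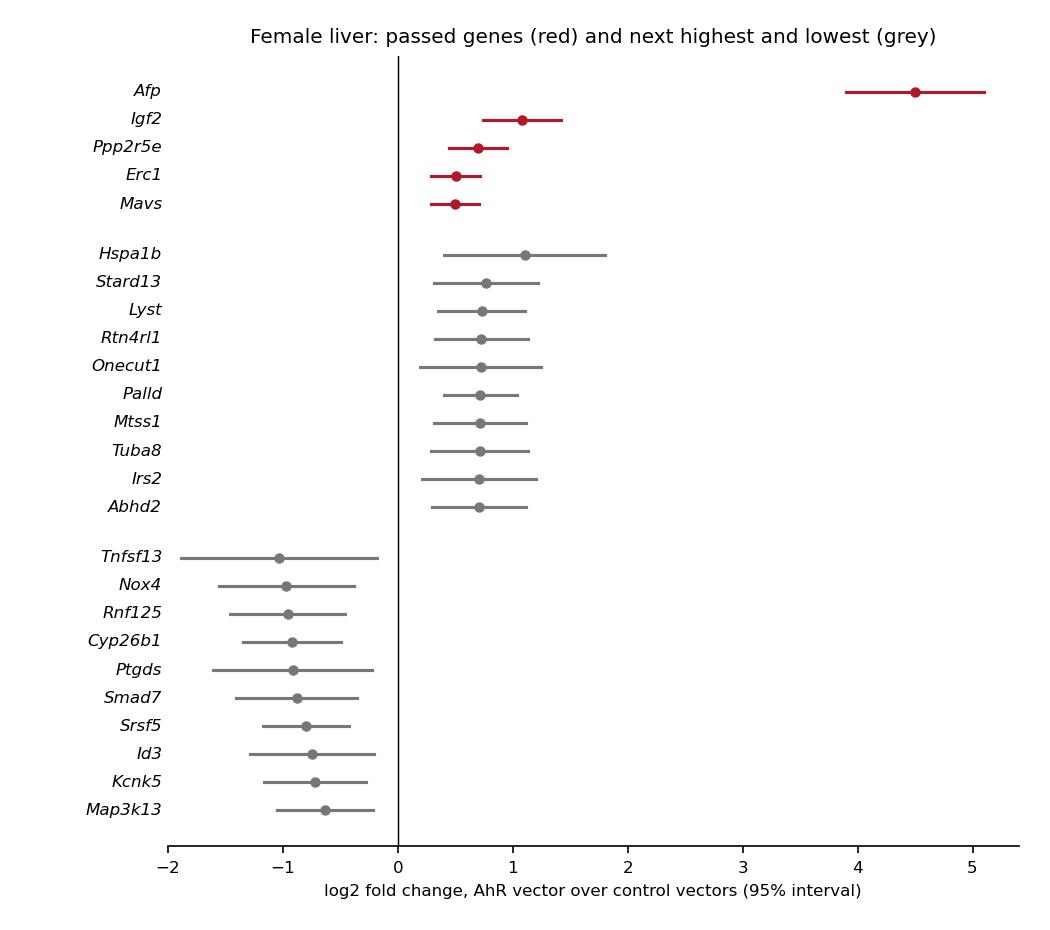
Log2 fold change of the AhR vector over control vectors in females with its 95% interval, for the 5 genes that passed (red) and, in grey, the 10 next highest and 10 next lowest by the rule given in the text. The intervals are per gene and not adjusted over all genes, so grey intervals that miss 0 did not pass the test.

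Large changes that did not pass came from genes that varied widely among mice, and those named here were also chosen after their values were seen. Cyp7a1, whose enzyme sets the rate at which cholesterol is turned into bile acids, had 8.73, 22.82 and 68.76 FPKM with the AhR vector and 5.57, 17.73 and 1.86 FPKM with control vectors. The groups overlapped, and the log2 fold change of 1.95 ± 0.68 had an adjusted p of 0.225 by limma. The hydroxysteroid sulfotransferase gene Sult2a1 had 571.89, 114.39 and 485.30 FPKM with the AhR vector against 138.04, 46.82 and 92.55 FPKM with control vectors (1.90 ± 0.68). Its relatives Sult2a2 (1.28 ± 0.58), Sult2a3 (2.29 ± 0.63) and Sult2a5 (1.26 ± 0.56) also had AhR-vector mouse 2 as the lowest of its group; these genes are close copies, so the split of reads between them is uncertain. Cidec, which encodes a lipid droplet protein, had 1.44 ± 0.62.

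AhR target genes were read next, because they are where a change in receptor activity could be looked for. Of 20 listed targets 8 were tested; 4 had a log2 fold change above 0, 4 below, and none passed, with a median of 0.00 beside -0.01 for all genes. At an unadjusted p under 0.05 the count by limma was also 0. Cyp1a2 had 95.47, 211.21 and 121.08 FPKM with the AhR vector and 124.52, 141.37 and 141.62 FPKM with control vectors. The AhR-vector livers lay on both sides of the control livers, and the log2 fold change was -0.01 ± 0.22 (95% interval -0.48 to 0.46). The glucuronosyltransferase gene Ugt1a6a had 0.01 ± 0.19. Of the receptor's cofactors 3 were tested, all above 0, and none passed. Hsp90aa1, its cytoplasmic chaperone, had 0.16 ± 0.20 and the coactivator gene Ncoa2 had 0.24 ± 0.14. Ep300 had 0.28 ± 0.12 (adjusted p = 0.334 by limma). Its groups did not overlap, in a table where 6.92% of genes were higher without overlap.

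Of 16 listed fetal and oncofetal liver genes 3 were in the table, and Afp and Igf2 passed. The third, the imprinted gene Peg3, had 0.08 ± 0.27. Of 18 listed regulators of the Afp gene 8 were tested and none passed; 6 were above 0 and 2 below, with a median of 0.16. Zbtb20, a repressor of Afp in adult mouse liver, had 3.84, 3.09 and 2.49 FPKM with the AhR vector and 1.91, 2.29 and 2.69 FPKM with control vectors, and its log2 fold change was 0.37 ± 0.15. Cebpb had -0.50 ± 0.22 and Hnf4a, the central hepatocyte nuclear receptor, had 0.25 ± 0.10.

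Around Mavs, 6 of 20 listed genes of RIG-I-like receptor signalling were tested, 4 above 0 and 2 below, and Mavs was the member that passed. Ddx58, which encodes RIG-I, had 0.14 ± 0.13, and Irf7, the interferon regulatory factor downstream, had 0.14 ± 0.20. Interferon-stimulated genes had 6 of 20 members tested with a median of 0.09, none of which passed; Stat2, part of the interferon-activated factor complex, had 0.47 ± 0.15. Around Igf2, 11 of 15 genes of the insulin-like growth factor axis were tested, 6 above 0 and 5 below. Igf2 was the member that passed, and Igf1, the main growth factor of adult liver, had 0.00 ± 0.14.

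Metabolic lists had no member that passed. The 7 tested genes of cholesterol synthesis and uptake, of 20 listed, all had log2 fold changes below 0, with a median of -0.45 beside -0.01 for all genes and 52.7% of all genes below 0. Fdps, of the isoprenoid branch, had 21.50, 24.39 and 10.28 FPKM with the AhR vector and 59.50, 14.59 and 47.09 FPKM with control vectors. Control mouse 2 was lower than 2 of the 3 AhR-vector mice, and the groups overlapped. Lss, lanosterol synthase, had -0.45 ± 0.22. Of 15 tested PPAR alpha and fatty acid oxidation genes 11 were above 0 and 4 below (median 0.15), with Cpt1a, the gate of mitochondrial fatty acid import, at 0.36 ± 0.18. Fatty acid synthesis had 6 above and 6 below, and bile acid synthesis and transport 8 and 8, where Cyp8b1, the sterol 12-alpha-hydroxylase, had 0.84 ± 0.38. The 7 tested genes of ethanol and aldehyde oxidation had a median of -0.02, with Adh1, the main hepatic alcohol dehydrogenase, at -0.27 ± 0.23.

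Of 24 tested female-biased liver genes, 18 were above 0 and 6 below (median 0.14), and of 22 male-biased genes 11 were above and 11 below (median 0.03); none passed. Pericentral hepatocyte genes had 8 of 11 above 0 and 3 below (median 0.21). They ranged from -0.32 ± 0.16 for Rgn to 0.69 ± 0.27 for Lgr5, a Wnt target of the cells around the central vein. The pericentral genes Cyp2e1 and Cyp1a2 had 0.05 ± 0.14 and -0.01 ± 0.22, and periportal genes had a median of 0.04. All 7 tested genes of the KDM5 family and histone H3 lysine 4 methylation were above 0 (median 0.23) and 3 of them did not overlap between the groups, in a table where 6.92% of genes were higher without overlap. These were Kdm5c (0.29 ± 0.11), Kmt2c (0.42 ± 0.15) and Kmt2d (0.36 ± 0.14), the last 2 being H3 lysine 4 methyltransferase genes, and none passed. The 7 include Kdm5d, a gene of chromosome Y, at 0.08 ± 0.14. Kdm5d had 0, 0.12 and 0 FPKM with the AhR vector and 0.02, 0 and 0 FPKM with control vectors. Its sign in females therefore carries no information. Kdm5c had 13.07, 12.93 and 12.03 FPKM with the AhR vector and 11.07, 9.32 and 10.60 FPKM with control vectors (adjusted p = 0.274 by limma). Clock and output genes had 6 above and 6 below, acute phase genes 3 above and 8 below, NRF2 and glutathione genes 1 above and 5 below, CAR and PXR targets 4 above and 3 below, and endoplasmic reticulum stress genes 5 above and 3 below. Among lists with few tested members, NF-kB and cytokine genes had 3 above and 2 below, p53 targets 1 above and 2 below, and matrix genes 4 above and 1 below.

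Markers of other liver cells were read beside these values. All 8 tested Kupffer cell markers had log2 fold changes below 0 (median -0.12) and none passed. Their FPKM summed to 415.57 to 544.13 with the AhR vector and 476.42 to 520.67 with control vectors, so the groups overlapped. Of the 8 markers, Vsig4 (-0.18 ± 0.14) was the one whose groups did not overlap, in a table where 7.48% of genes were lower without overlap. All 7 sinusoidal endothelial markers were above 0 (median 0.10), also with none passing. Their sums were 100.27 to 110.11 FPKM with the AhR vector and 85.92 to 99.86 FPKM with control vectors, apart by a narrow gap. Of the 7 markers, Gpr182 (0.38 ± 0.16) was the one whose groups did not overlap. Among all genes, 6.92% were higher without overlap. The part of this difference in the results above was not tested. The 5 stellate cell markers summed to 213 to 266 FPKM with the AhR vector and 228 to 257 FPKM with control vectors. The 6 tested genes of MHC class II presentation, Cd74 and Ctss among them, were all below 0 (median -0.25). Their sums were 173.98 to 250.45 FPKM with the AhR vector and 246.38 to 281.85 FPKM with control vectors, so the groups overlapped. Of the listed cholangiocyte and T and NK cell markers 1 each was in the table, at 0.79 to 1.55 and 1.52 to 2.37 FPKM with the AhR vector and 0.66 to 1.32 and 1.92 to 2.60 FPKM with control vectors. B cell, neutrophil, dendritic cell and cycling cell markers were not analysed here. None of the markers in the table was at 0 in all 6 libraries. In whole liver, fewer cells of a type and less RNA per cell cannot be told apart.

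**Figure D4:**
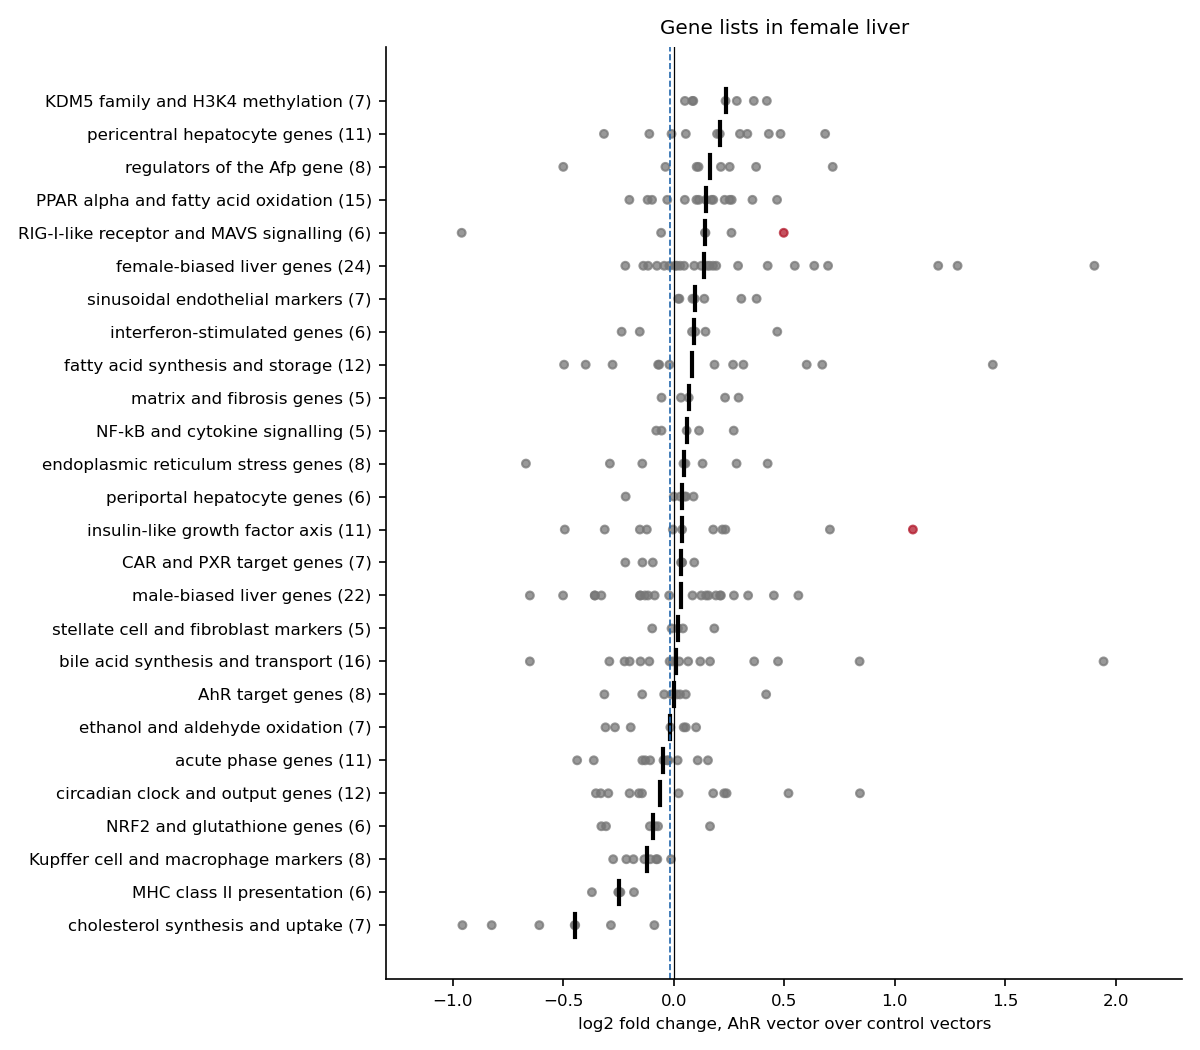
Log2 fold change of the AhR vector over control vectors in females for the tested members of 26 gene lists (number tested in brackets), ordered by list median (black bar); the dashed line is the median of all tested genes. Red points passed the test: Mavs and Igf2. Members of most lists fall on both sides of 0. Cholesterol synthesis, MHC class II presentation and Kupffer cell genes lie below 0, and sinusoidal endothelial and histone H3 lysine 4 genes above it. The histone list includes Kdm5d of chromosome Y, which is near 0 FPKM in these females.

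The females were then compared with males given the same vectors. The difference of the effect, females minus males, passed for 13 of 2299 genes (0.565%) by limma, 2 higher in females (0.087%) and 11 lower (0.478%). In males alone, 25 genes passed (1.09%). Afp and Igf2 were the 2 higher ones. Afp had 0.22, 0.77 and 1.01 FPKM in AhR-vector males and 0.35, 0.34 and 0.17 FPKM in control-vector males. These male groups overlapped, and the log2 fold change was 4.50 ± 0.29 in females and 0.51 ± 0.29 in males, a difference of 3.99 ± 0.41 (adjusted p = 1.13e-05 by limma). Igf2 had 0.08, 0.19 and 0.31 FPKM in AhR-vector males and 0.24, 0.31 and 0.30 FPKM in control-vector males. Its log2 fold change was 1.08 ± 0.16 in females and -0.19 ± 0.16 in males, a difference of 1.27 ± 0.23 (adjusted p = 0.0158 by limma). For Ppp2r5e, Erc1 and Mavs the differences were 0.51 ± 0.17, 0.49 ± 0.14 and 0.48 ± 0.14, none of which passed (adjusted p = 0.193, 0.135 and 0.135 by limma). A sex difference in these 3 genes was therefore not shown.

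Of the genes with a lower effect in females, Spata2l had the smallest p. It measured 12.54, 14.96 and 15.05 FPKM in AhR-vector females against 20.33, 21.78 and 17.97 FPKM in control-vector females, and 32.54, 40.71 and 34.18 FPKM in AhR-vector males against 16.58, 16.60 and 19.68 FPKM in control-vector males. The groups were apart in both sexes and in opposite directions, -0.48 ± 0.12 log2 in females and 1.00 ± 0.12 in males, a difference of -1.48 ± 0.17 (adjusted p = 5.25e-05 by limma). The female change did not pass by itself (adjusted p = 0.101 by limma). Its difference between females with and without the Kdm5 vectors, 0.89 ± 0.17, also passed (adjusted p = 0.0182 by limma). Overlapping genes on the other strand are annotated at Spata2l.

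For Bcl6, H2-Aa, H2-Ab1, Cd74 and Arrdc2 the fitted change was larger in size in males than in females. Bcl6, a repressor of the female liver programme in males, had a log2 fold change of 0.45 ± 0.29 in females and 2.38 ± 0.29 in males, a difference of -1.92 ± 0.41 (adjusted p = 0.033 by limma). The MHC class II genes H2-Aa and H2-Ab1, whose products present antigen on Kupffer cells and other immune cells, had -0.37 ± 0.21 and -0.25 ± 0.19 in females and 1.15 ± 0.21 and 1.18 ± 0.19 in males. Cd74, which encodes the invariant chain that escorts MHC class II molecules, had -0.24 ± 0.19 in females and 0.96 ± 0.19 in males, a difference of -1.20 ± 0.26 (adjusted p = 0.0428 by limma). Arrdc2 had -0.29 ± 0.23 in females and 1.32 ± 0.23 in males. Kcnk5, among the lowest in females at -0.72 ± 0.21, had 0.66 ± 0.21 in males, and that difference passed (adjusted p = 0.042 by limma). Cyp26b1, by contrast, had -0.92 ± 0.20 in females and -0.94 ± 0.20 in males, and the male value passed (adjusted p = 0.0249 by limma), with a difference of 0.02 ± 0.29. Leaving out 1 library at a time, Afp, Igf2 and Spata2l passed in all 12 fits, H2-Ab1 in 10, H2-Aa and Arrdc2 in 8, Bcl6 and Cd74 in 4 and Kcnk5 in 3. When the 4 compared groups were fitted alone, Igf2, Arrdc2, Bcl6 and Kcnk5 did not pass (adjusted p = 0.0922, 0.0637, 0.0922 and 0.102 by limma), so that Afp was the one gene still higher in females. With median-of-ratios scaling 5 genes were higher in females and 6 lower, and Kcnk5 and Cd74 did not pass (adjusted p = 0.0622 each by limma).

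**Figure D5:**
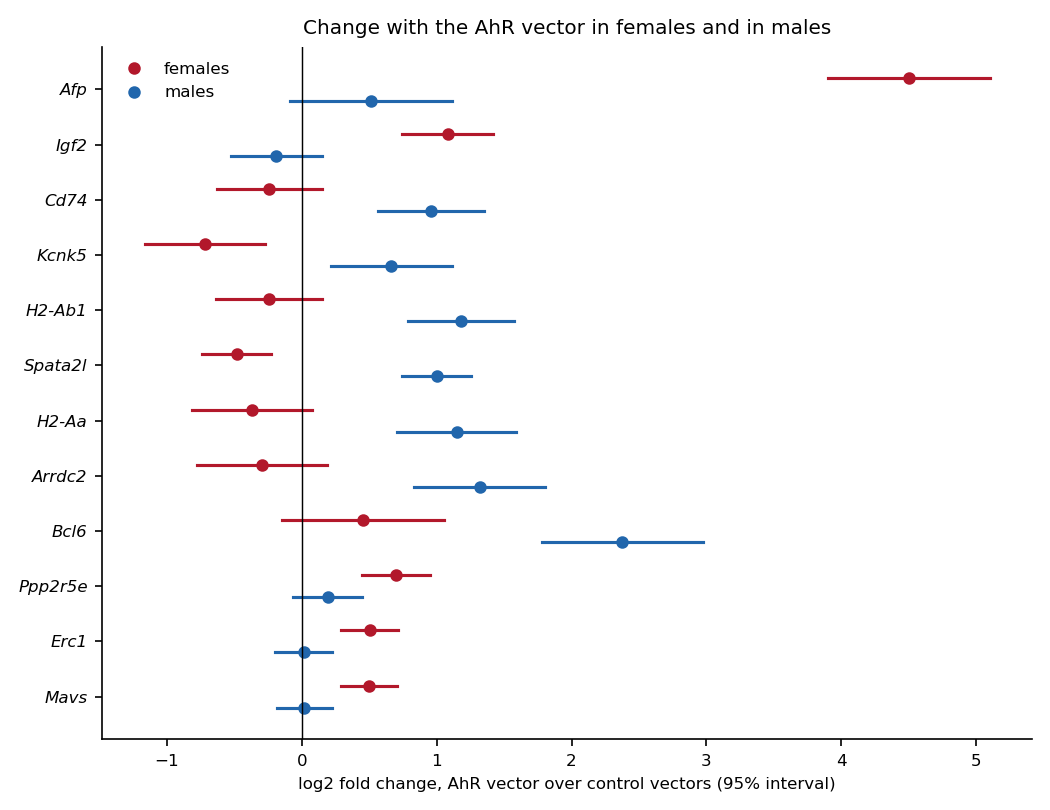
Log2 fold change of the AhR vector over control vectors with its 95% interval in females (red) and in males (blue) for the named genes whose difference between the sexes passed (Afp to Bcl6) and for Ppp2r5e, Erc1 and Mavs, whose difference did not. Afp and Igf2 are high in females, while the values of Cd74, Kcnk5, H2-Ab1, Spata2l, H2-Aa, Arrdc2 and Bcl6 are higher in males.

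Whether the AhR vector acted the same way in females that also had the Kdm5 vectors was asked with the difference of both effects, with the Kdm5 vectors minus without. By limma 14 of 2299 genes passed (0.609%), 8 higher (0.348%) and 6 lower (0.261%). Within females that had the Kdm5 vectors, 48 genes passed when the AhR vector was added (2.09%). Afp had 16, 25.16 and 21.42 FPKM in Kdm5 + AhR females and 10.26, 5.85 and 8.54 FPKM in Kdm5 females. It was therefore already far above the control females with the Kdm5 vectors. With the AhR vector added it was higher by a further 1.30 ± 0.29 log2 (adjusted p = 0.0252 by limma), less on this scale than the 4.50 ± 0.29 without them. Mean FPKM went from 0.203 to 15.8 without the Kdm5 vectors and from 8.22 to 20.9 with them. The log2 difference therefore rests on control values of 0.05 to 0.33 FPKM, below the 0.5 added before taking logs. The difference of -3.20 ± 0.41 passed (adjusted p = 0.000385 by limma), and it passed in all 12 fits with 1 library left out and in the fit of the 12 female libraries alone (adjusted p = 0.0098). Levels of Afp in the 9 females with any active vector were 5.85 to 25.16 FPKM, and those in the 12 males 0.16 to 1.01 FPKM.

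Mavs had 28.22, 35.10 and 30.10 FPKM in Kdm5 + AhR females and 37.27, 34.40 and 33.96 FPKM in Kdm5 females. With the Kdm5 vectors present, its log2 fold change under the AhR vector was -0.18 ± 0.10, and the difference of -0.68 ± 0.14 passed (adjusted p = 0.0251 by limma). Ppp2r5e had 0.01 ± 0.12 with the Kdm5 vectors, Erc1 0.23 ± 0.10 and Igf2 0.46 ± 0.16, and their differences of -0.69 ± 0.17, -0.27 ± 0.14 and -0.62 ± 0.23 did not pass. Tuba8 had -0.91 ± 0.20 with the Kdm5 vectors and 0.71 ± 0.20 without (difference -1.62 ± 0.29, adjusted p = 0.0141 by limma), and Rtn4rl1 had -0.55 ± 0.19 and 0.72 ± 0.19 (difference -1.27 ± 0.27). Nfil3, a circadian transcriptional repressor, had -1.08 ± 0.19 and 0.18 ± 0.19.

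In the other direction, Srsf5 had 0.45 ± 0.18 with the Kdm5 vectors and -0.80 ± 0.18 without (difference 1.25 ± 0.25, adjusted p = 0.0223 by limma). The drug efflux pump gene Abcb1a had 1.05 ± 0.21 and -0.40 ± 0.21, and the thyroid hormone receptor gene Thrb had 0.90 ± 0.15 and -0.29 ± 0.15. The count of 14 rested on single livers: it was 1 without control mouse 1, and 1 without Kdm5 + AhR mouse 3. In the fit of the 12 female libraries alone it was 1, which was Afp.

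The Kdm5 vectors alone, set against the same 3 control females, gave log2 fold changes of 3.62 ± 0.29 for Afp, 0.55 ± 0.16 for Igf2, 0.47 ± 0.12 for Ppp2r5e, 0.38 ± 0.10 for Erc1 and 0.51 ± 0.10 for Mavs, beside the AhR-vector values of 4.50, 1.08, 0.70, 0.50 and 0.50. All 5 Kdm5 values passed by limma (adjusted p = 1.59e-07, 0.0471, 0.0277, 0.031 and 0.00727), among 158 genes that did (6.87%). Both sets share their control mice, so any deviation of those mice enters both. The 2 active groups were therefore also compared with each other, without the control females. None of the 5 genes passed there: AhR-vector minus Kdm5 females was 0.88 ± 0.29 for Afp (adjusted p = 0.102 by limma), 0.54 ± 0.16 for Igf2, 0.23 ± 0.12 for Ppp2r5e, 0.12 ± 0.10 for Erc1 and -0.02 ± 0.10 for Mavs. For Mavs the 95% interval of that difference ran from -0.22 to 0.19, and for Afp from 0.28 to 1.48.

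Over all genes, 33 of 2299 passed between AhR-vector and Kdm5 females (1.44%) by limma, 16 higher (0.696%) and 17 lower (0.739%) with the AhR vector. Of the 24 tested female-biased genes, 22 had differences above 0 and 2 below, with a median of 0.50 beside 0.02 for all genes, of which 52.7% were above 0. The 4 that passed, all higher, were Cyp3a41a, Cyp2c69, Cyp3a44 and A1bg. Among those that did not pass, Cyp2b9 had a difference of 0.12 ± 0.50, Sult2a1 one of 0.49 ± 0.68 and Cyp17a1 one of -0.31 ± 0.34. Cyp3a41a had 835.28, 562.00 and 752.53 FPKM with the AhR vector and 436.80, 72.68 and 318.08 FPKM with the Kdm5 vectors (1.71 ± 0.42, adjusted p = 0.0474 by limma). Cyp2c69 had 314.74, 276.39 and 98.23 FPKM with the AhR vector and 47.92, 43.27 and 89.92 FPKM with the Kdm5 vectors (1.83 ± 0.43). A1bg had a difference of 1.74 ± 0.40 and Cyp3a44 one of 1.46 ± 0.28. A difference between the 2 active groups can come from either of them. Mean FPKM in AhR-vector, control and Kdm5 females was 717, 439 and 276 for Cyp3a41a and 230, 187 and 60.4 for Cyp2c69. It was 4.47, 3.16 and 1.07 for A1bg and 24.4, 30.2 and 9.1 for Cyp3a44. None of these 4 passed with the AhR vector against control vectors. Outside that list, the glucuronosyltransferase gene Ugt2b37 had 1.56 ± 0.37. The cytochrome oxidase subunit gene Cox7a1 had 2.11 ± 0.49. With the AhR, control and Kdm5 vectors, mean FPKM was 3.20, 2.54 and 0.38 for Cox7a1 and 2.14, 1.10 and 0.353 for Ugt2b37. Both genes were below 1 FPKM in every Kdm5 female, and neither passed with the AhR vector against control vectors. The lowest were Gm44805 (-3.59 ± 0.79), 1810046K07Rik (-1.19 ± 0.28), the cyclin gene Ccnf (-1.02 ± 0.20), Fam47e (-0.77 ± 0.18) and Abcd4, a lysosomal cobalamin transporter gene (-0.71 ± 0.12). In the same order of groups, mean FPKM was 2.52, 7.47 and 16.5 for Gm44805 and 2.18, 1.90 and 5.43 for 1810046K07Rik. It was 4.85, 5.26 and 10.3 for Ccnf, 1.87, 2.56 and 3.54 for Fam47e, and 5.02, 5.35 and 8.52 for Abcd4. Reads of Cyp3a and Cyp2c genes can be shared between close copies, and Gm44805 was listed at 0 in AhR-vector mice 2 and 3 and at 7.56 FPKM in mouse 1. The count was 0 without AhR-vector mouse 2 and 0 without Kdm5 mouse 2, with 277 and 382 genes at an unadjusted p under 0.05 by limma, so these differences depend on single livers.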

How the data were processed

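Whole-liver RNA of 24 mice was compared in 8 groups of 3, taken from the labels; mouse numbers only name mice. The authors deposited FPKM per gene, per the file headers, rounded to 2 decimals; the name of the table speaks of raw counts, but the values are FPKM. The build GRCm38.p6 and the aligners HISAT and Bowtie2 come from the submitters' processing notes; the sources used here state neither versions, the counting step nor how the 2372 genes were chosen. Read depth is unknown, since low values lie near the rounding step, so no counting interval is given. A gene was tested if 3 or more libraries reached 1 FPKM (2299 genes), as log2(FPKM + 0.5) with limma 3.58.1 in R 4.3.3 (1 mean per group, intensity trend, robust moderation, 16 residual degrees of freedom, Benjamini-Hochberg adjustment over 2299 genes, threshold 0.05). The procedure was tested on simulated data. A ± is an SE after a log2 value and an SD after an FPKM mean. The rule for named genes takes Ahr, Kdm5c and Afp, every gene that passed, the 10 next highest and 10 next lowest, the first 2 tested members of each of 39 lists, and the 5 highest and 5 lowest that passed in each other comparison; some genes are not reported here. The comparison and the lists were chosen with earlier results of these data known.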

Additional observations from a re-analysis of the deposited data

Results flagged for a closer look

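For the named genes that follow, females and males differed in what the AhR vector did, by the limma test of the difference with adjustment over all genes. On the log2 scale, females minus males, the differences were 3.99 for Afp, 1.27 for Igf2, -1.20 for Cd74, -1.39 for Kcnk5, -1.43 for H2-Ab1, -1.48 for Spata2l, -1.52 for H2-Aa, -1.61 for Arrdc2 and -1.92 for Bcl6. Igf2, Arrdc2, Bcl6 and Kcnk5 lost the call when the compared groups were fitted alone. Kcnk5 and Cd74 lost it with median-of-ratios scaling. With single libraries left out, only Afp, Igf2 and Spata2l kept it each time.

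The effect in females also differed between mice with and without the Kdm5 vectors, by the same test. With minus without, the differences were 1.45 for Abcb1a, 1.25 for Srsf5, 1.19 for Thrb, 0.89 for Spata2l, -0.68 for Mavs, -1.26 for Nfil3, -1.27 for Rtn4rl1, -1.62 for Tuba8 and -3.20 for Afp. All but Afp lost the call in the fit of the 12 female libraries alone. The Afp difference holds on the log2 scale and rests on control females at 0.05 to 0.33 FPKM.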

How the results depend on the processing

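No paired analysis was possible because the labels give no replicate numbers. The 5 genes higher with the AhR vector in females became 8 with a pseudocount of 1, 3 with a filter of 5 FPKM, 9 with median-of-ratios scaling (8 higher and 1 lower), 9 without trend and robust moderation, and 1 (Afp) both in the 6 libraries alone and in the 12 female libraries alone; leaving out single libraries gave 3 to 12. The 13 sex differences became 6 in the compared groups alone and 23 with library weights, and 4 to 19 with single libraries left out; median-of-ratios scaling gave 11, with 5 higher and 6 lower. The 14 differences between the settings of the Kdm5 vectors became 1 in the compared groups alone, which are the female libraries, and 1 to 23 with single libraries left out. The 33 differences between AhR-vector and Kdm5 females became 13 with a pseudocount of 0.1, 54 with median-of-ratios scaling (20 higher and 34 lower), 10 with library weights, 0 in the compared groups alone and 0 in the female libraries alone (319 and 376 at an unadjusted p under 0.05 by limma), and 0 to 68 with single libraries left out. Libraries whose absence moved a count by over 1.5 times are named here for the first comparison: 3 genes passed without control mouse 1, 3 without control mouse 2, 11 without control mouse 3, 12 without AhR-vector mouse 1 and 3 without AhR-vector mouse 3. For the second they are male control mouse 1 (5 genes), male AhR-vector mouse 3 (6), female control mouse 1 (4) and female AhR-vector mouse 1 (4). For the third they are control mouse 1 (1), control mouse 2 (23), AhR-vector mouse 1 (9), Kdm5 mouse 1 (8) and Kdm5 + AhR mouse 3 (1), and for the fourth AhR-vector mice 1, 2 and 3 (19, 0 and 68) and Kdm5 mice 2 and 3 (0 and 2). Of 2069 values of single named genes, none that passed changed sign; 195 no longer passed, 17 newly passed and 73 that had not passed crossed 0. The cause of these shifts was not tested. With 3 mice a group, the spread between livers limits all 4 comparisons.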
